A study of Homo sapiens with 12 samples.

Results

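Pseudogenes are copies of genes that no longer encode the protein of their parent. Processed pseudogenes arose when an mRNA was copied back into the genome, unprocessed ones arose by duplication of a gene, and unitary ones are genes that lost their function without leaving an intact copy. Many are transcribed from promoters near where they landed, and a few are known as RNAs with roles of their own. Because their sequence follows that of the parent, a short read from an mRNA can fit both places, so a pseudogene row of a read table can hold reads of the parent as well as its own.

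The 550 pseudogenes described here are the rows with 30 or more reads in the pseudogene class of the read tables, summed over 6 RNA-seq libraries, out of 904 rows with any such read and 38716 symbols in all. The libraries came from IMR90, a line of normal human lung fibroblasts, either proliferating (Pro) or passaged to replicative exhaustion, the state called senescence (Sen), with no other treatment named in the labels. Each state had 3 replicate cultures, each giving 1 RNA-seq library and 1 Ribo-seq library, in which the fragments that ribosomes shield from RNase are sequenced. The growth protocol names more than 1 isolate of the line without saying which samples came from which. In lysates of whole cultures, fewer cells of a kind and less RNA per cell cannot be told apart.

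The rule used the sum over both states and not their difference. The members just inside it were TCAM1P, LOC102724738 and GTF2IP23, each with 30.2 reads, and those just outside were HERC2P7, CEACAM22P and CTAGE10P, each with 29.8. All 6 fibroblast markers were high, with a summed CPM (of mRNA reads) of 24585 to 31456. The 3 endothelial markers summed to at most 0.978, with CDH5 at 0 in every library. Of the epithelial markers EPCAM and CDH1 did not exceed 1.06 and 0.661, while KRT18 and KRT8 brought the list to 302 to 323 in Pro and 230.0 to 251 in Sen. The leukocyte list summed to 19.8 to 22.1 in Pro and 30.9 to 33.9 in Sen, nearly all of it CD68, with PTPRC at most 0.176. The part of these levels in the results was not tested. RNA-seq libraries held between 8185913 and 14609160 assigned reads. Ribo-seq libraries held between 158427 and 2149947, the shallowest being Pro 1 and Sen 2.

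A symbol of the form RPL21P28 names its parent, RPL21, and 284 members had such a parent with mRNA reads, 214 different parents in all. The other 266 had none, among them 104 with a LOC number for a name. For 446 members a transcript could be read from the GENCODE v44 annotation lifted to GRCh37. Of these, 189 were annotated as processed, 202 as unprocessed and 18 as unitary. The annotation gave 21 others as long non-coding RNA, 8 as pseudogenes of no stated type, 7 as protein coding and 1 in a further class. Values that are not whole numbers mark rows in which reads had been divided. Of the nonzero member values 68.5% were not whole, against 34.2% of mRNA values, with values within 0.001 of a whole number taken as whole. Only 27 members were whole in all 6 libraries.

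How close a pseudogene lies to its parent is easiest to see in the sequence. A window of 30 bases, about the length of a ribosome footprint, was taken from the alignment of each member below with the best matching coding transcript of its parent, 1 pair where the window differed least and others where it differed most. The 4 members were picked after their values were known, because they moved with the parent (ANXA2P2 and PTMAP11) or against it (RPL23AP82 and GOLGA2P7). Sequences run 5′ to 3′ on the transcribed strand, and capitals mark bases that differ between the members of a pair. ANXA2P2 lies at chr9:33624272-33625291 on the plus strand and its parent ANXA2 on the minus strand of chromosome 15.
ANXA2P2, fewest differences: tctggtgacttccgcaagctgatggttgcc
ANXA2, same window: tctggtgacttccgcaagctgatggttgcc
ANXA2P2, most differences: gcGAcaatgcacagagacaggatattgTct
ANXA2, same window: gcAGcaatgcacagagacaggatattgCct
PTMAP11, most differences: gcTgtagacaccagctcTgaaatcaTTGcc
PTMA, same window: gcCgtagacaccagctcCgaaatcaCCAcc
RPL23AP82, most differences: CcaccctgattTgTcctgatAAGgagaaCa
RPL23A, same window: AcaccctgattCgGcctgatGGAgagaaGa
GOLGA2P7, most differences: CCcgagaaCAGGgagAtAaaCaCcacCAtc
GOLGA2, same window: GAcgagaaTGATgagGtGaaGaTcacTGtc

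In its most divergent window ANXA2P2 differed from ANXA2 at 3 bases, and over its whole length of 1020 bases it was 98.4% identical. PTMAP11, at chr9:99672358-99672687 on the plus strand, differed from PTMA at up to 5 bases and was 94.8% identical. RPL23AP82, at chr22:51237083-51237551 on the plus strand, differed from RPL23A at up to 7 bases, with 91.7% identity. GOLGA2P7, at chr15:84872618-84874071 on the minus strand, reached 12 differences and 84.7% identity with GOLGA2. Each of the 4 members also held at least 1 window with 0 differences. A read that lies within such a window cannot be assigned to either copy. The RNA-seq reads were longer than 30 bases by the paper's account and can reach past it.

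Members held 773774 RNA-seq reads, 99.6% of all reads in the pseudogene class. The median member had 278 reads. The distribution was steep, with 39.6% of member reads in 12 members and 66.8% in 50. ANXA2P2 led with 70995 reads, 9.18% of the total. It was followed by FTH1P3, a copy of the ferritin heavy chain gene, with 61611. Pseudogenes of ribosomal proteins (RPLP0P2, RPSAP9, RPL21P28, RPS18P9, RPL19P12 and RPS14P3), of the protein disulphide isomerase PDIA3, of the ER chaperone HSP90B1, of gamma actin and of ANXA2 made up the rest of the first 12. Across the 284 pairs the pseudogene row held a median of 14.1% of the parent's mRNA reads, and in 21 pairs it held more reads than the parent.

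As a share of all RNA-seq reads, members took 1.31, 1.26 and 1.19% in the Pro libraries and 1.07, 1.13 and 1.01% in the Sen libraries. The groups did not overlap. The mean share was 1.25% ± 0.0585 (SD, n = 3) in Pro and 1.07% ± 0.0616 (SD, n = 3) in Sen, a difference of -0.181 percentage points. A two-sided exact permutation test gave p = 0.1, which is the smallest value that 3 against 3 libraries allow.

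**Figure D1:**
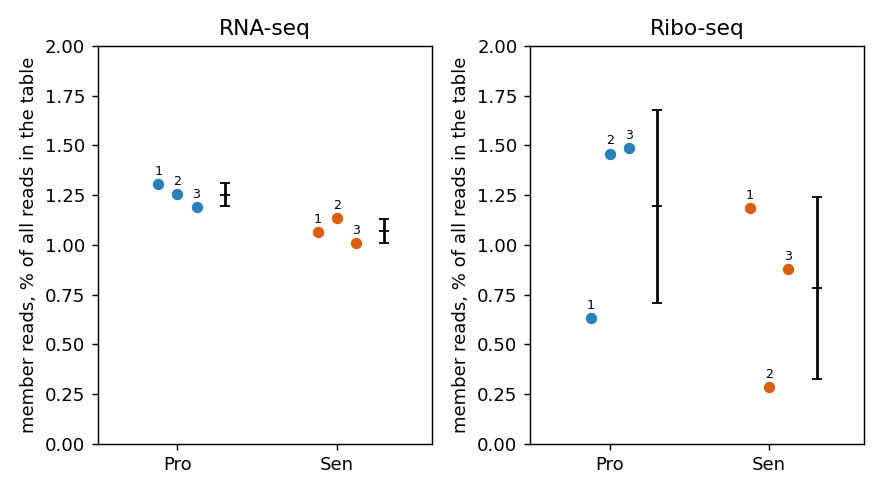
Reads of the 550 pseudogenes as a percentage of all assigned reads in each RNA-seq (left) and Ribo-seq (right) library, with points numbered by replicate and black bars for mean ± SD of 3 libraries. The RNA-seq groups are separate, at 1.19 to 1.31% in Pro and 1.01 to 1.13% in Sen, whereas the Ribo-seq groups overlap and the lowest library of each is Pro 1 and Sen 2.

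To ask which pseudogenes changed between the states, each row of the whole RNA-seq table was tested with edgeR's quasi-likelihood test at an adjusted p under 0.15. Of the 550 members, 476 had enough reads to be tested; the 74 others had at most 67.5 reads each. Among the tested members 109 rose, 156 fell and 211 were not called, so 265 were called, or 55.7%. The share over all 15107 rows tested was 70.7%, with 34.8% higher and 35.9% lower. A member that passed the read filter could do so through either state, so these counts describe the tested members and not all 550. Among called members 97 rose and 137 fell without overlap of the groups, and over all rows 63.1% were called without overlap. The median log2 fold change (Sen over Pro) was -0.06 for tested members and -0.01 for all rows, and the median standard error was 0.16 against 0.11. With library totals in place of TMM factors 87 members rose and 184 fell.

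Of the 12 members with the most reads, 4 rose and 8 fell. ANXA2P2, a copy of the membrane-binding annexin A2, stood at 968, 923 and 922 normalised CPM in Pro and at 1170.2, 1280.3 and 1057 in Sen. All Sen values lay above all Pro values, with a log2 fold change of 0.32 ± 0.0759 (SE; edgeR adjusted p = 0.00125). FTH1P3 stood at 1118, 1128 and 984 in Pro and 756, 836 and 751 in Sen, with a log2 fold change of -0.46 (SE 0.0754, adjusted p = 2.77e-05).

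The other ANXA2 copies also rose. ANXA2P1 was at 219, 204 and 191 CPM in Pro and 257, 284 and 244 in Sen, and its log2 fold change was 0.36. ANXA2P3 rose by 0.36 too. HSP90B2P rose from 266, 239 and 254 CPM to 306, 371 and 295. PDIA3P1 passed the threshold with overlapping groups, at 301, 274 and 275 against 309, 338 and 283 CPM, where the log2 fold change was 0.13 (adjusted p = 0.14). That call was lost without Pro 2, Pro 3, Sen 1 or Sen 2, with values from 0.07 to 0.14. ACTG1P20 fell by 0.38 on the log2 scale.

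**Figure D2:**
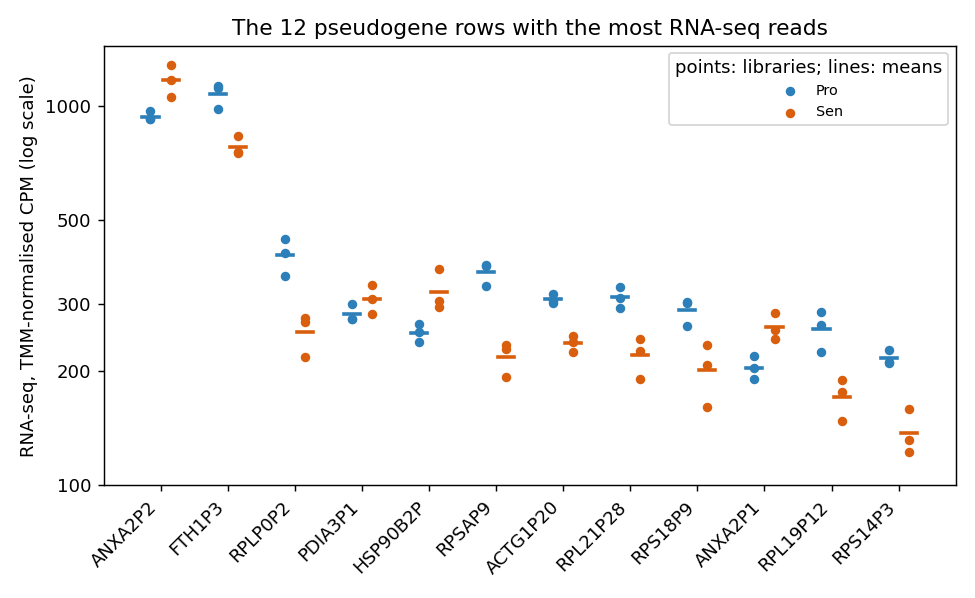
RNA-seq level of the 12 pseudogenes with the most reads, in TMM-normalised CPM on a log axis, with points for the 3 Pro and 3 Sen libraries and lines for their means. ANXA2P2, HSP90B2P and ANXA2P1 sit higher in every Sen library than in any Pro library, PDIA3P1 overlaps, and the other 8 are lower in every Sen library.

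The members were also grouped by parent, and each family's counts stand beside 34.8% higher and 35.9% lower over all rows tested. All 28 pseudogenes of ribosomal proteins were tested, 22 fell, 3 rose and 3 were not called, with a median log2 fold change of -0.52; all 18 of their parents fell, with a median of -0.60. RPSAP9 went from 381, 379 and 336 CPM to 229, 234 and 193, a change of -0.74 (SE 0.0813, adjusted p = 2.05e-07). RPLP0P2 went from 445, 411 and 356 CPM to 269.5, 276 and 217, a change of -0.67 (SE 0.0928). All 4 RPL13A copies fell, with log2 fold changes from -0.74 to -0.52. The 3 that rose were copies of RPL23A and are described with the ratios to the parent.

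In the list of RNA-binding proteins and PTMA, 5 of 6 copies fell, with a median of -0.80; besides PTMAP11 these were HNRNPA1P10, HNRNPA3P1, HNRNPKP3 and PABPC1P2, and YBX3P1 was not called at -0.12. HNRNPA1P10 fell by 1.55 and HNRNPA3P1 by 1.16 on the log2 scale; their parents encode hnRNPs that bind and splice pre-mRNA. PTMAP11, a copy of the chromatin protein prothymosin alpha, was at 72.7, 72.7 and 60.4 CPM in Pro and 22.5, 19.2 and 20.4 in Sen. Of 3 copies of high mobility group genes, HMGN2P46 and HMGB3P1 fell, by 1.78 and 1.29, and HMGA1P7 was too shallow to test, with 47.3 reads. All 3 copies of glycolytic enzymes rose: PGAM1P5 by 0.62, TPI1P3 by 0.32 and TPI1P2 by 0.31. The chaperone list, formed from parent symbols, held FKBP1AP1, which rose by 0.93, and FKBP9P1, PPIAP30 and PPIAP46, which were not called (0.04 to 0.14). It holds neither HSP90B2P, whose symbol names no parent, nor PIN1P1, a copy of a peptidyl-prolyl isomerase gene that rose by 0.51. Also left out, for want of a parent from the symbol, were CCT6P1, CCT6P3 and HSP90AB4P, whose changes are not given here. Of 10 cytoskeletal copies, with annexins counted here, 3 rose and 4 fell, and of 7 copies of ubiquitin and proteasome genes 2 rose and 3 fell, both close to the 70.7% called over all rows.

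Of the 8 members with the highest called fold changes without overlap, TCAF2P1 and MRS2P2 had a parent named by their symbol; these rose by 1.38 and 1.32, and the parents by 1.25 and 1.29. PSG10P, a pregnancy-specific glycoprotein pseudogene, was at 0.708, 0.415 and 0.455 CPM in Pro and 2.97, 3.04 and 2.75 in Sen, a log2 fold change of 2.50 (SE 0.289, adjusted p = 4.16e-07). CMAHP, the human remnant of the gene for an enzyme that makes a sialic acid lost in humans, was at 0.472, 1.16 and 1.36 CPM against 3.38, 5.22 and 3.54, a log2 fold change of 1.98 (SE 0.286, adjusted p = 6.84e-06). For CMAHP every value was a whole number of reads and 0 of its 30-base windows occurred in a coding transcript of another gene.

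MT1L, in the cluster of metallothioneins that bind zinc and copper, was at 8.50, 7.88 and 8.46 CPM in Pro and 29.97, 30.7 and 26.0 in Sen, a log2 fold change of 1.81. LOC286059 rose by 1.98, LOC392232 by 1.78 and TMEM191A by 1.32. Windows of 30 bases matching a coding gene with up to 2 mismatches made up 79.6% of MT1L (MT1E). They made up 56.1% of PSG10P (PSG8) and 53.05% of TMEM191A (TMEM191B). Ratios to those coding genes were not tested. The choice of these 8 required that every Sen library lie above every Pro library.

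TSPY26P had the most negative change, -2.46 (SE 0.488, adjusted p = 2.30e-04), from 1.1799, 1.99 and 2.0006 CPM in Pro to 0.614, 0 and 0.443 in Sen. It rested on 67 reads in all, and 3 reads in the Sen 2 library equal 0.212 CPM. FABP5P3, a copy of a fatty acid binding protein gene, was at 12.3, 10.4 and 9.91 CPM against 2.05, 2.54 and 2.39, a change of -2.19 (SE 0.165, adjusted p = 1.06e-09). ASNSP1, a copy of asparagine synthetase, fell by 2.07, LOC100288637 by 2.03 and DDX12P, a relative of the helicase gene DDX11, by 1.81. PTTG3P, a copy of the securin gene PTTG1, fell by 1.71, from 12.98, 10.03 and 8.002 CPM to 2.56, 3.74 and 2.83. Windows matching with up to 2 mismatches made up 84.9% of DDX12P (DDX11) and 78.7% of PTTG3P (PTTG1), and ratios to those genes were not tested. In all, 15 called members rose and 22 fell by more than 1 on the log2 scale. The share of all rows past that limit was not computed, so these counts are not a trait particular to pseudogenes.

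Among pseudogenes known from the literature as RNAs of their own, GBAP1, a copy of the glucocerebrosidase gene, rose from 18.8, 18.6 and 20.4 CPM to 27.3, 29.999 and 26.9 CPM, a log2 fold change of 0.55 beside 0.62 for its parent. WHAMMP3 and WHAMMP2 rose by 0.63 and 0.53, and PA2G4P4 fell by 0.48. UBBP4 rose by 0.23, a call lost without Sen 1, where the value was 0.17. SUMO1P3 at -0.17 passed the threshold with overlapping groups (adjusted p = 0.115), but the call was lost without Pro 1, Pro 3, Sen 1 or Sen 3, with values from -0.16 to -0.10. MSTO2P stood at -0.06 (adjusted p = 0.605).

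The question that shared sequence raises is whether a pseudogene moved otherwise than its parent. Both could be tested in 247 pairs, and the fold changes had the same sign in 198 of them, or 80.2%. Both were called in 131 pairs, of which 123 had the same sign and 8 opposite signs. The 8 were DNM1P46, GOLGA2P7, GOLGA2P10, RPL23AP53, RPL23AP82, RPL23AP87, GTF2IRD1P1 (0.35, parent -0.59) and HTATSF1P2 (0.60, parent -0.23). Across the 247 pairs Pearson's r was 0.79 and Spearman's rho 0.74. These are descriptions across pairs that share libraries, scaling and part of their reads.

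The likeness was lowest among the pairs with the smallest share of matching windows, in classes set after the values were seen. In 51 pairs under 25% of the member's 30-base windows matched the parent with up to 2 mismatches; there the sign was shared by 60.8%, r was 0.41 and the median absolute difference of the log2 fold changes was 0.22. In 109 pairs with 25 to 75% of windows matching, the sign was shared by 87.2%, r was 0.90 and the median difference 0.085. In 75 pairs above 75% these were 82.7%, 0.88 and 0.089, no closer than in the middle class. The share counts the member's whole transcript, so parts that do not align with the parent lower it too. RPLP0P2, with 23.5% of windows matching, was 94.6% identical to RPLP0 over the 31.0% of its length that aligned. By exact 30-base matches to coding transcripts, the sign was shared by 72.1% of 43 pairs under 5%, 81.2% of 149 pairs between 5 and 50% and 82.6% of 46 pairs above, with r of 0.52, 0.84 and 0.93. All these windows are shorter than the RNA-seq reads. How much of the likeness came from reads of the parent was not tested.

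**Figure D3:**
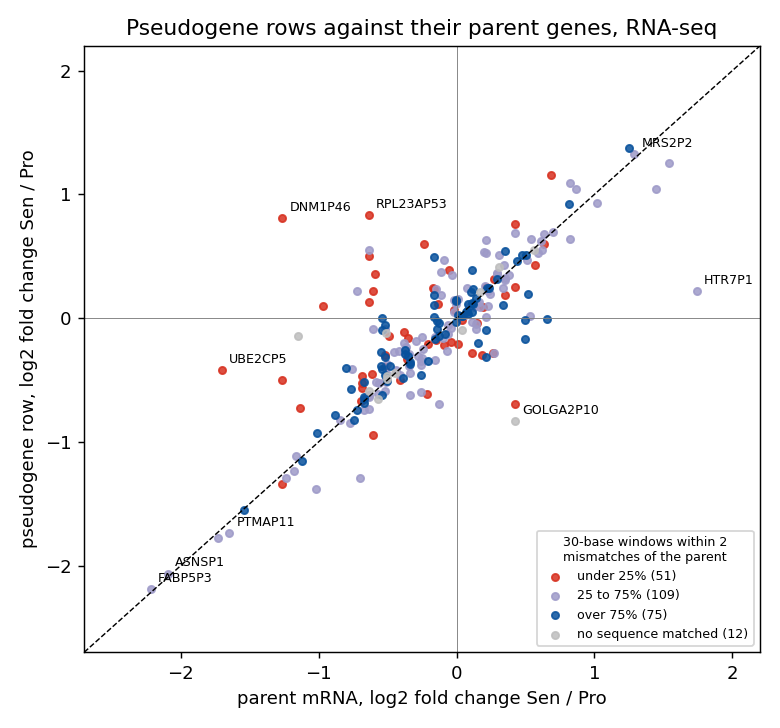
Log2 fold change (Sen over Pro, RNA-seq) of 247 pseudogene rows against that of their parent mRNA, coloured by the percentage of the pseudogene's 30-base windows that match the parent with up to 2 mismatches; the dashed line marks equal change. Most points lie along the line from FABP5P3 and ASNSP1 at the lower left to MRS2P2 at the upper right, and DNM1P46, RPL23AP53, GOLGA2P10 and HTR7P1 lie far from it.

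The log2 ratio of pseudogene reads to parent mRNA reads within each library needs no scaling between libraries. It was tested with limma over 330 pairs with 10 or more pseudogene reads, including pairs below the rule for members. Of 284 member pairs 35 changed, 24 towards the pseudogene in Sen and 11 towards the parent. Over all 330 pairs 11.2% were called, 7.88% higher and 3.33% lower. The count of called member pairs fell to 16 without Pro 1, 19 without Pro 2, 21 without Sen 3, and 22 without Pro 3 or without Sen 2.

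RPL23A, a protein of the large ribosomal subunit, fell from 531, 536 and 512 CPM to 360.0, 353 and 302, a log2 fold change of -0.64. Its copy RPL23AP53 rose from 19.4, 18.2 and 20.3 CPM to 32.9, 36.1 and 33.8, so that the ratio rose by 1.47 (95% interval 1.20 to 1.74, limma adjusted p = 0.00367). RPL23AP82 rose from 9.79, 10.6 and 11.6 CPM to 17.4, 16.1 and 13.7, with a ratio change of 1.19 (0.95 to 1.44).

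RPL23AP87 rose by 0.50, with a ratio change of 1.12 (0.88 to 1.35). By contrast RPL23AP32 fell by 0.64 and RPL23AP64 by 0.73, like the parent, and RPL23AP7 was not called at 0.13 (adjusted p = 0.302). Windows matching RPL23A with up to 2 mismatches made up 66.3% of RPL23AP32 and 35.0% of RPL23AP64, against 20.4% of RPL23AP53, 47.5% of RPL23AP82, 9.56% of RPL23AP87 and 7.24% of RPL23AP7. The copies that fell and the copies that rose therefore overlapped in this measure. Sequence shared among the copies themselves was not measured.

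DNM1P46, a copy of part of the dynamin 1 gene, had the largest ratio change, 2.05 (95% interval 1.40 to 2.70, adjusted p = 0.0145), on 79.7 reads in all. It was at 0.708, 0.912 and 0.909 CPM in Pro and 1.43, 1.13 and 2.04 in Sen while DNM1 fell by 1.26. Its own RNA-seq call was lost without Sen 3, where its log2 fold change was 0.55. For UBE2CP5 the parent, a ubiquitin-conjugating enzyme of mitosis, fell by 1.70 while the pseudogene changed by -0.42, a call lost without Pro 2 or Sen 1, at -0.34 and -0.36; the ratio rose by 1.27 (0.93 to 1.62).

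In the other direction, GOLGA2P10 fell from 2.95, 3.57 and 3.001 CPM to 1.74, 1.76 and 1.86 while the Golgi protein gene GOLGA2 rose from 93.3, 95.04 and 91.2 to 124, 123 and 127. The ratio fell by 1.25 on the log2 scale (adjusted p = 0.00367). GOLGA2P7 fell by 0.69, and its ratio fell by 1.09 (adjusted p = 0.046); the ratio call was lost without Pro 1 or Pro 2, at -1.08 and -1.03.

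HTR7P1 stood at 13.7, 12.3 and 10.8 CPM against 15.1, 13.8 and 13.8, above its parent HTR7, a serotonin receptor gene at 1.42, 2.16 and 2.18 against 5.93, 6.07 and 7.79. Its ratio fell by 1.56 (adjusted p = 0.0474). Its own log2 fold change of 0.22 (adjusted p = 0.11) lost its call without Pro 2, Pro 3 or Sen 1, at 0.22, 0.14 and 0.18. The ratio of MEIS3P1 fell by 0.67 (adjusted p = 0.121), lost without Pro 1, Pro 2, Pro 3, Sen 1 or Sen 3 (-0.76 to -0.55). HBBP1, a beta-globin pseudogene with 40 reads in all, had a ratio change of -1.55 (adjusted p = 0.143), lost without Pro 1, Pro 2, Sen 2 or Sen 3 (-1.48 to -1.23). For some of these members the coding gene sharing most exact 30-base windows was not the named parent. It was ENSG00000275674 for GOLGA2P7, TMEM170A for RPL23AP87, SLC35E3 for UBE2CP5 and HBD for HBBP1. Ratios to those genes were not tested.

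**Figure D4:**
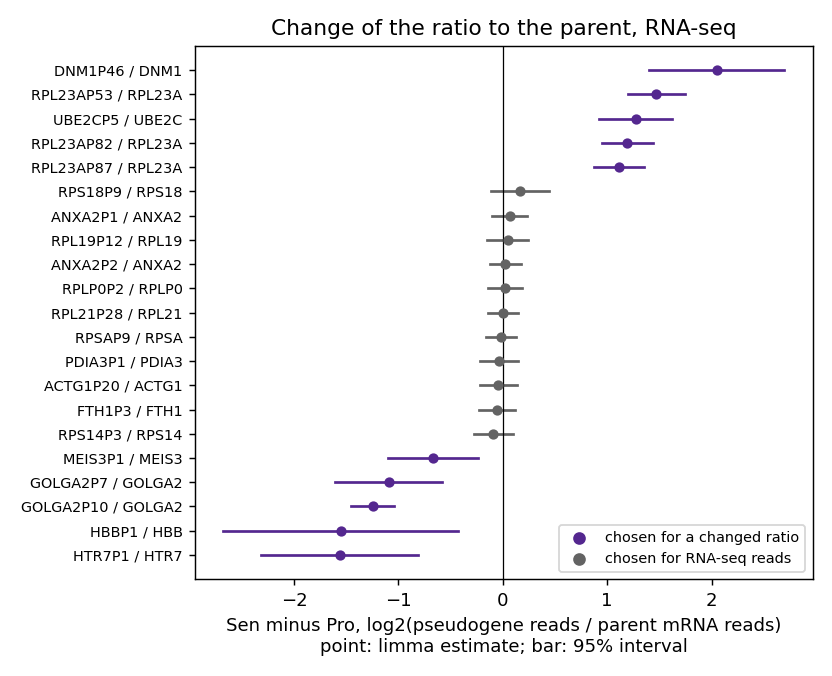
Change between Pro and Sen of the log2 ratio of pseudogene to parent mRNA reads in RNA-seq, as limma estimate with 95% interval, for the 10 pairs named for a changed ratio (purple) and the 11 most read members with a parent (grey). Grey pairs lie between -0.09 and 0.16 with intervals that include 0; RPL23AP53, RPL23AP82 and RPL23AP87 lie above 1 and GOLGA2P10 and GOLGA2P7 below -1.

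For the most read members the ratio hardly moved. ANXA2P2 changed by 0.03 relative to ANXA2 (95% interval -0.12 to 0.18), FTH1P3 by -0.06 (-0.23 to 0.12) and RPLP0P2 by 0.02 (-0.14 to 0.18). The intervals bound the difference; they do not show that it is 0. WHAMMP3, at 0.43 (0.24 to 0.61, limma adjusted p = 0.0325), and WHAMMP2, at 0.31 (adjusted p = 0.121), were the called pairs among the pseudogenes known as RNAs, and WHAMMP2 lost its call without any 1 of the 6 libraries.

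In the Ribo-seq libraries members took 77475 reads, of which 75433 lay outside the shallow libraries Pro 1 and Sen 2. Per 1000 CDS reads this was 18.5, 17.3 and 16.7 in Pro and 15.2, 19.0 and 16.1 in Sen, overlapping between the states. As a share of mRNA reads, UTRs included, it was 1.43, 1.63 and 1.603% in Pro and 1.39, 0.770 and 1.31% in Sen, without overlap, a difference of -0.398 percentage points (two-sided exact permutation test, p = 0.1, the smallest possible). As a share of all Ribo-seq reads members took 0.634, 1.46 and 1.49% in Pro and 1.1837, 0.284 and 0.879% in Sen; the means were 1.19% ± 0.484 and 0.782% ± 0.457 (SD, n = 3 each), and a two-sided exact permutation test gave p = 0.3. Wilson 95% intervals, which cover counting error only, ran from 0.596 to 0.674% in Pro 1 and from 0.267 to 0.302% in Sen 2.

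Of the 550 members, 35 had 0 Ribo-seq reads, 122 had under 3, 233 had 30 or more and 120 had 100 or more. ANXA2P2 took 6087, HSP90B2P 3572, LOC100130331 2612 and PDIA3P1 2486. Together with ANXA2P1, RPS18P9, PFN1P2 and RPL19P12 they held 28.5% of all member reads. Over all members there were 10.0 Ribo-seq reads per 100 RNA-seq reads, with a median of 6.39. Processed pseudogenes had 10.5, unprocessed ones 7.84 and unitary ones 2.15. In 217 pairs with at least 100 RNA-seq reads in both rows, the median was 9.76 for the pseudogene and 5.53 for the parent's CDS reads per 100 of its mRNA reads, and the pseudogene had the higher value in 162. UTR reads enlarge that divisor. With the parent's CDS reads in RNA-seq as divisor instead, chosen after seeing the data, the medians over 215 pairs were 9.80 and 9.18 and the pseudogene was higher in 117. ANXA2P2 then lay below ANXA2, at 8.57 against 9.27, and ACTG1P20 below ACTG1, at 6.71 against 10.1.

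By exact 30-base windows found in coding transcripts of other genes, members with under 5% shared had 17.3 Ribo-seq reads per 100 RNA-seq reads, those with 5 to 50% had 10.3 and those above 50% had 6.64. Their medians were 6.53, 8.02 and 5.201. The first class held 11617 Ribo-seq and 67049 RNA-seq reads in all. Of these PFN1P2 took 1661 and 836, although 0.554% of its windows were shared exactly and 7.82% matched PFN1 with up to 2 mismatches. PFN1P2 was 1 of 9 members with more Ribo-seq than RNA-seq reads; others, chosen after their values were seen, were RPS15AP10 with 310.0 against 60.8 and CFL1P1 with 373 against 112.5.

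At the other end ANKRD19P, LOC107987135 and LOC112268170, also picked after their values were seen, had 6122.5, 5382 and 2492 RNA-seq reads and 0 Ribo-seq reads. MEIS3P1 had 18 Ribo-seq reads beside 2700.5 RNA-seq reads, and its parent MEIS3 was alike, with 18 CDS Ribo-seq reads beside 2803 mRNA reads. Ribo-seq reads in a pseudogene row can come from footprints of the parent, and reads on the wrong copy cannot be separated in these tables, so a read is not evidence that the pseudogene was translated.

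**Figure D5:**
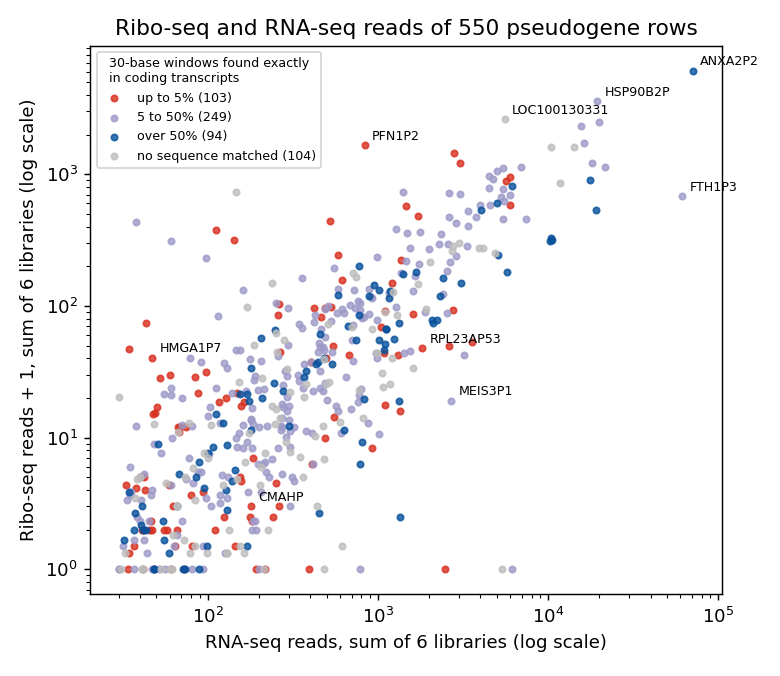
Ribo-seq reads plus 1 against RNA-seq reads of the 550 pseudogenes, both summed over 6 libraries on log axes, coloured by the percentage of 30-base windows found exactly in coding transcripts of other genes. Points rise together over the whole range, with PFN1P2 and LOC100130331 above the bulk, FTH1P3 and MEIS3P1 below it, and 35 members along the bottom edge at 0 Ribo-seq reads.

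For the change in Ribo-seq, 149 members had enough reads for the edgeR test. Of these 26 rose and 30 fell; the 56 calls compare with 43.6% of all rows called (22.7% higher, 21.0% lower). This count depended on the fit: library totals gave 0 higher and 3 lower, DESeq2 7 and 7, and the replicate block 12 and 16. Both layers could be tested in 148 members and both were called in 48, of which 45 had the same sign. The 3 exceptions were FTH1P3, UBBP4 and LOC107984289. The same counts over all rows were not made, so this likeness is not a trait particular to pseudogenes. In Pro 1 and Sen 2, 3 reads equal 28.1 and 30.9 CPM, so low values there carry little. Without both libraries 220 members were tested and 88 called. Leaving out 1 library gave 30 calls without Pro 2, 23 without Pro 3, 37 without Sen 1 and 75 without Pro 1; without Sen 2 and Sen 3 there were 62 and 38.

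MT1L had 0, 8.26 and 4.03 CPM in the Ribo-seq libraries of Pro and 21.3, 10.3 and 19.4 in those of Sen, a log2 fold change of 1.95 (SE 0.37, adjusted p = 0.00296). HMGN2P46 was at 18.8, 31.4 and 19.1 against 4.48, 10.3 and 4.32, a change of -2.32 (SE 0.38, adjusted p = 0.00132). For MT1L and HMGN2P46 the Pro 1 and Sen 2 values lie under the level of 3 reads, 28.1 and 30.9 CPM in those libraries. PTMAP11 fell by 1.06, PTTG3P by 1.95, and LOC392232 rose by 1.56.

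PFN1P2 was at 197, 154 and 142 CPM in Pro and 245, 237 and 381 in Sen. Every Sen library was above every Pro library, with a log2 fold change of 0.89 (SE 0.23, adjusted p = 0.0161), beside -0.21 (SE 0.131, adjusted p = 0.175) in RNA-seq. Its parent PFN1 held 7822 CDS reads in Ribo-seq and shared a window with 0 differences. Whether members changed otherwise than their parents in Ribo-seq was not tested. FTH1P3 was at 93.8, 57.8 and 78.9 CPM against 76.6, 237 and 151, with overlapping groups, and passed the threshold at 0.88 (SE 0.35, adjusted p = 0.0801). That call was lost without Pro 2, Pro 3 or Sen 3, with values from 0.74 to 1.01.

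GBAP1 rose by 0.97 in Ribo-seq, a call lost without Pro 3, at 0.89. RPSAP9 fell by 0.45 (adjusted p = 0.096), lost without Pro 2, Pro 3, Sen 1 or Sen 3 (-0.54 to -0.28). RPL21P28 fell by 0.63, lost without Pro 2, Pro 3 or Sen 3 (-0.62 to -0.42). UBBP4 stood at -0.61 (adjusted p = 0.108), lost without Pro 2, Pro 3 or Sen 1 (-0.69 to -0.22). ANXA2P2 at 0.36 (adjusted p = 0.264), ANXA2P1 at 0.19 and HSP90B2P at 0.02 did not pass the threshold.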

How the data were processed

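For each gene symbol the tables deposited by the authors give the reads assigned to 5′ UTR, CDS, 3′ UTR, pseudogene and other classes in the form of expected counts with no scaling to depth. The submitters' processing notes name cutadapt 1.18, Bowtie 1.0.1, SAMtools 1.8 and DESeq2 1.22.2. The genome build, annotation, strand rule and rule for reads with several placements are not given in the sources used here. The tests had been set up for whole counts, so fractional values were rounded once regions had been summed. The file names of the proliferating RNA-seq libraries carry a tag like the name of a solvent that the labels do not mention.

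Groups came from sample titles, with 3 replicates for each of 4 groups. The table had 1 row per symbol and read class: mRNA (5′ UTR, CDS and 3′ UTR in RNA-seq, CDS in Ribo-seq), pseudogene and the others. Rows that passed filterByExpr were tested in edgeR 4.0.16 (R 4.3.3) with TMM factors and Benjamini-Hochberg adjustment over all rows at 0.15, the rate in the published methods. Levels are TMM-normalised CPM. Ratios to parents were tested in limma 3.58.1 on log2 of pseudogene over mRNA reads, 0.5 added to each. DESeq2 1.42.0 was an alternative. Procedures were tested on simulated data. P-values measure the spread between cultures of 1 cell line.

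The parent is the symbol without its trailing P and number, if that symbol has mRNA reads. Transcripts were matched to GENCODE v44 (GRCh37) by symbol or RefSeq ID; 446 of 550 members matched (81.1%). Windows of 30 bases were searched in coding transcripts on the same strand. Coordinates are GENCODE's, and none came from the deposited tables.

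Named members are the 12 with most RNA-seq reads, the 8 highest and 8 lowest called fold changes without overlap, the 8 with most Ribo-seq reads, the 5 highest and 5 lowest called ratio changes without overlap, the members nearest the limit of 30 reads, and pseudogenes known as RNAs. Members, lists and families were chosen with earlier results of these data known. Same-numbered Pro and Sen libraries did not deviate together (r from -0.072 to 0.087 in RNA-seq). The sequence classes, the aligned pairs and the members picked for extreme Ribo-seq per RNA-seq reads were chosen after their values were seen. Alternatives were other scalings, filters, thresholds and tools, the replicate block and leaving out libraries. Some results are not reported here.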

Additional observations from a re-analysis of the deposited data

Results flagged for a closer look

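LOC112267871, a row of the pseudogene class outside the members, had 5.5 RNA-seq reads over 6 libraries but 73398 Ribo-seq reads, 48.3% of all Ribo-seq reads in that class. It took 704, 3733 and 5737 reads in the Pro libraries and 17590.2, 19037 and 26598 in the Sen libraries, which is 4.44, 4.596 and 2.96 per 1000 Ribo-seq reads in Pro and 8.18, 52.1 and 24.9 in Sen. It was flagged because it is a signal in data that the comparisons of members do not use, at a higher level in Sen than in Pro. The make-up of the libraries differed too. Reads of mRNA were 1826173 of 2149947 in Sen 1, 134850 of 365289 in Sen 2 and 717722 of 1067199 in Sen 3. In Pro 1, where the row took 4.44 per 1000, they were 70234 of 158427. Whether the level of this row goes with the state or with library make-up was not tested.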

How the results depend on the processing

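Between 216 and 271 members were called in RNA-seq under every alternative, against 265. Of 1257 repeats for named members, 1126 kept direction and side of the threshold, 77 lost and 8 gained a call, and 46 changed sign. Where a value below does not say so, the cause was not tested. Ribo-seq calls, 56 of 149, fell to 3 with library totals (the median of all rows moved from 0.01 to -0.54), 28 with the replicate block, 14 in DESeq2 and 33 at an adjusted p under 0.05. They rose to 88 without Pro 1 and Sen 2 together, where fewer samples entered and more members were tested, and ranged from 23 to 75 without 1 library. Ratio calls ranged from 16 to 29 without 1 library and were 26 with the block. Same-numbered libraries did not deviate together. With 3 replicates per state this cannot show whether the numbers pair the samples, and the labels do not say. The Ribo-seq share difference turned from -0.411 to 2.03 with every row of the pseudogene class, and was -0.414 without LOC112267871, an alternative chosen after seeing the data. The sign changes were in values that had not passed the threshold. With library totals the Ribo-seq changes were -0.38 for ANXA2P1, -0.15 for ANXA2P2, -0.63 for HSP90B2P, -0.42 for LOC100130331, -0.54 for PDIA3P1, -0.55 for RPLP0P2 and -0.39 for RPS18P9. In DESeq2, with RLE factors and with mRNA-based TMM factors they were -0.052, -0.0075 and -0.0014 for HSP90B2P, and -0.0080, -0.0146 and -0.0017 for RPLP0P2, which was -0.017 with the block. Without Pro 1 and Sen 2 together they were -0.18 for HSP90B2P, -0.094 for PDIA3P1 and 0.048 for RPS14P3. Without 1 library they ranged from -0.17 to 0.18 for HSP90B2P, -0.075 to 0.22 for PDIA3P1, -0.66 to 0.20 for RPL23AP82, -0.17 to 0.18 for RPLP0P2, -0.15 to 0.048 for RPS14P3 and -0.069 to 0.31 for RPS18P9. MEIS3P1 in RNA-seq was 0.00012 in DESeq2, 0.00073 with RLE factors, 0.0021 over pseudogene and mRNA rows, and -0.088 to 0.046 without 1 library. Ratios without 1 library ranged from -0.066 to 0.20 for ASNSP1, -0.094 to 0.14 for FABP5P3, -0.098 to 0.099 for MRS2P2 (-0.079 with a prior of 2), -0.065 to 0.0022 for PDIA3P1, -0.0038 to 0.095 for RPL19P12, -0.00064 to 0.00051 for RPL21P28, -0.0053 to 0.041 for RPLP0P2, -0.066 to 0.047 for SUMO1P3 and -0.046 to 0.19 for TCAF2P1. Depth limits the Ribo-seq values of Pro 1 and Sen 2 most.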
